A study of Homo sapiens with 30 samples.

Results

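The 10 genes described here encode the 5 subunits of the transcription factor NF-κB (NFKB1, NFKB2, RELA, RELB and REL) and 5 genes that NF-κB is known to induce and that act back on it (NFKBIA, NFKBIE, BCL3, TNFAIP3 and BIRC3). They were taken by symbol from the 61471 genes in each of the 2 expression tables of the study. All 10 were present in both tables, and all 10 passed the filter on low values in both lines, among 22918 genes tested in U87 and 23667 in U251. Bulk RNA was sequenced from 2 human lines derived from glioblastoma, U87-MG (U87) and U251-MG (U251), both labelled wild type, in cells without interferon-γ (Untreated), after 3, 14 and 28 days of IFN-γ (D3, D14 and D28), and 28 days after the start with IFN-γ withdrawn at day 14 (D28WO, washout). The sources differ on the IFN-γ dose, and it is not used below. Untreated cultures are labelled day 3, and the labels give no untreated group at day 14 or 28. In comparisons of D14, D28 and D28WO with Untreated, exposure and time in culture therefore cannot be told apart. The labels give 3 replicates for each group, which the study's methods describe as independent cultures, and each line stands for 1 established tumor cell line that was not re-authenticated by the study. Of the U87 columns, 2 have identical names and were left out, so 13 U87 libraries (2 at D3 and 2 at D14) and 15 U251 libraries were used. Values are TPM, transcript abundance scaled for library size and transcript length, so levels of different genes can be set side by side within a line.

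NF-κB subunits bind DNA as dimers. In resting cells most dimers are held in the cytoplasm by inhibitors of the IκB family, and in the canonical branch the IKK kinase complex marks IκB for destruction, which frees dimers of p50 (from NFKB1), RelA and c-Rel (the product of REL). In the noncanonical branch the kinase NIK drives the processing of p100, the product of NFKB2, to p52, which pairs with RelB. Freed dimers induce their own inhibitors, and A20 (TNFAIP3) and cIAP2 (BIRC3) are ubiquitin-editing and ubiquitin ligase enzymes whose genes are classical targets. IFN-γ itself signals through JAK kinases and not through IKK.

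Proximal promoters were searched for NF-κB and interferon motifs. RefSeq promoter windows (GRCh38.p14, 250 bases before to 50 after an annotated start) were held for 8 of the 10 genes, with none for RELB and NFKBIE. The κB consensus, searched by name on both strands, matched in at least 1 window of NFKB1, NFKB2, REL, NFKBIA, TNFAIP3, BIRC3 and BCL3, and in none of the 2 windows of RELA. It was found in 5.91% of all 35116 windows of that length. That share counts windows, whereas a gene was counted if any of its windows matched. Because NFKB1, NFKB2 and RELA have more than 1 window, the 2 are not like for like. The 4 stretches below are shown because these genes gave the clearest changes or are the best known feedback targets. They hold the 250 bases before the start, 5′ to 3′ on the gene's strand, with each κB match in capitals.
NFKBIA, chr14:35404750-35404999, minus strand: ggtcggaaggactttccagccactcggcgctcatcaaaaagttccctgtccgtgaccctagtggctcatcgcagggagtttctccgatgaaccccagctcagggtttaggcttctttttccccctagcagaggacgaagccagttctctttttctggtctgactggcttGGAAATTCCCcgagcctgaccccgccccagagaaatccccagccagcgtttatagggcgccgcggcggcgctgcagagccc
TNFAIP3, chr6:137867009-137867258, plus strand: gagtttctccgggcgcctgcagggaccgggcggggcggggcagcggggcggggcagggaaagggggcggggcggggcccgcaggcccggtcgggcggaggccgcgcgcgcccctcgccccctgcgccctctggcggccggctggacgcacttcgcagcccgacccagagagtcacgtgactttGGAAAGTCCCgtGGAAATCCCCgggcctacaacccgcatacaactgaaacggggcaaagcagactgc
BIRC3, chr11:102317234-102317483, plus strand: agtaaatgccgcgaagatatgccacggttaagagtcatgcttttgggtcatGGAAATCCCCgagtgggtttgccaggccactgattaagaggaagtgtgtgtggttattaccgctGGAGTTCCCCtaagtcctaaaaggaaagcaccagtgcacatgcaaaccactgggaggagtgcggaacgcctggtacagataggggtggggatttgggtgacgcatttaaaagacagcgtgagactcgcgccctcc
NFKB2, chr10:102394328-102394577, plus strand: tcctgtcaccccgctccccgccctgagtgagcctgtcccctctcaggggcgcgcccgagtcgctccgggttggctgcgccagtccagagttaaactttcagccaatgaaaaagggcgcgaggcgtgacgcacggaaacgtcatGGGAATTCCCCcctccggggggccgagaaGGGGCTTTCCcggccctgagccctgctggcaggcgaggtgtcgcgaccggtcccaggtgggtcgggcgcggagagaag

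In the TNFAIP3 window the matches lay 67 to 58 and 55 to 46 bases before the start. The BIRC3 matches lay farther away, at 199 to 190 and 135 to 126 bases, and the NFKBIA match lay at 81 to 72 bases. In NFKB2 the shown window held matches that overlap each other (107 to 97 bases before the start) and 1 more at 78 to 69 bases, and the window of a later NFKB2 start held matches at 176 to 167 and 21 to 12 bases. The single BCL3 match lay behind its start, 2 to 11 bases downstream. For the interferon motifs, the gamma-activated site (TTCNNNGAA, in 7.66% of all windows) and the interferon-stimulated response element (in 3.57%), the only member with a match was RELA, with both in 1 of its 2 windows. In these windows no interferon motif overlapped a κB match. A match is a string of letters and not a measured binding site. RELB and NFKBIE lie at chr19:45001461-45038192 (plus strand) and chr6:44258166-44265788 (minus strand) in GENCODE 44 (GRCh38).

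Before the genes are described, the libraries were checked against their labels with 25 known IFN-γ response genes. Against Untreated, D3 of U87 had 24 of 25 risen, D14 had 2, and D28 and D28WO had all 25. The U87 D14 libraries, labelled as exposed, thus had few of these genes called above Untreated, and the D28WO libraries, labelled as withdrawn, had as many called as D28. In U251 25, 22, 25 and 25 of the 25 genes rose at D3, D14, D28 and D28WO, and 24 were higher at D28WO than at D14. The U251 D14 libraries, labelled as under continued exposure, had 23 of the 25 genes lower than at D3 (median log2 fold change -1.31), and 23 were higher at D28 than at D14 (median 1.27). At D28WO against D28, 2 of the 25 genes were higher and 1 lower in U87, and 5 were higher and 7 lower in U251. Results that involve U87 D14, or D28WO of either line, therefore rest on groups whose IFN-γ response genes as a set go against the labelled exposure. Those of U251 D14 rest on a group with a lower response than D3 and D28. The labels were used as given, it was not tested whether those of D14 and D28WO are right, and any comparison named for withdrawal depends on them. The counts against Untreated are also given from fits without D14 or without D28WO.

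Genes with a value above 0 numbered 24223 to 25459 in the U87 Untreated libraries and 26096 to 28649 in the other U87 libraries, and in U251 24450 to 27187 in Untreated, 26475 to 28365 at D3, 27763 to 29771 at D14, 28955 to 30246 at D28 and 25633 to 26378 at D28WO. The U251 D28 libraries thus did not overlap with Untreated or D28WO in this number. The mean level of olfactory receptor genes, a background sign in cells that do not use them, was 0.047 to 0.087 TPM in U87 Untreated, 0.119 to 0.157 at D3, 0.086 to 0.101 at D14, 0.097 to 0.143 at D28 and 0.133 to 0.150 at D28WO. In U251 it was 0.069 to 0.119, 0.139 to 0.156, 0.112 to 0.126, 0.122 to 0.174 and 0.081 to 0.114 TPM in the same order, and its part in the results was not tested. Correlations between libraries of a group ranged from 0.960 to 0.974 in U87 and from 0.959 to 0.974 in U251. The glioma markers differed in part between the lines. VIM was at 984 TPM or more in every U87 library and at 599 to 1161 TPM in U251. CD44 was at 471 to 732 TPM in U87 and 394 to 864 TPM in U251. In U87 SOX2 was at 0.411 TPM or less and GFAP between 2.33 and 19.1 TPM. In U251 SOX2 was at 105 TPM or more and GFAP was at 1219 to 1309 TPM in Untreated and 222 to 255 TPM at D28. S100B, NES and FABP7 were also higher in U251, whereas OLIG2 was at 3.51 to 32.0 TPM in U87 and 1.33 TPM or less in U251. The summed level of 8 glial and glioma markers in U251 was 3826 to 3893 TPM in Untreated, 1573 to 1939 at D3, 2710 to 3097 at D14, 1712 to 1943 at D28 and 2200 to 2281 at D28WO, and in U87 it lay between 1518 and 2178 TPM. The sum of 4 endothelial markers in U251 was 35.8 to 49.9 TPM in Untreated, 13.3 to 14.3 at D3, 30.1 to 43.04 at D14, 20.7 to 22.4 at D28 and 11.2 to 16.4 at D28WO. Of 10 leukocyte markers PTPRC stayed at 1.47 TPM or less and CD3E at 0.308 TPM or less in every library, and the summed level of the 10, most of it CD68, was 358 to 436 TPM in U87 Untreated, 327 to 336 at D3, 317 to 353 at D14, 338 to 489 at D28 and 233 to 270 at D28WO. In U251 the same sum was 139 to 148 TPM in Untreated and between 87.8 and 177 in the other groups. The summed level of 5 fibroblast and pericyte markers was 538 to 622 TPM in U87 Untreated, 521 to 570 at D3, 636 to 656 at D14, 604 to 644 at D28 and 346 to 418 at D28WO. In U251 this sum was 344 to 359 TPM in Untreated, 166 to 183 at D3, 213 to 238 at D14, 198 to 221 at D28 and 239 to 278 at D28WO. The sum of 3 neuron markers was 95.1 to 99.5 TPM in U87 Untreated, 89.7 to 108 at D3, 127 to 133 at D14, 105 to 130 at D28 and 65.4 to 75.9 at D28WO, and in U251 18.7 to 22.8, 22.8 to 32.7, 28.3 to 40.1, 36.2 to 50.5 and 29.9 to 43.0. In U87 the endothelial sum lay between 4.52 and 8.49 TPM. The sum of 3 epithelial markers was at most 9.87 TPM in U87, where it was 3.90 to 9.87 in Untreated and 1.91 to 4.02 at D28WO, and at most 2.90 TPM in U251. The part of these markers in the results was not tested.

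Against Untreated, TNFAIP3 rose in all 4 comparisons in both lines, RELB in all 4 in U251 and at D3, D28 and D28WO in U87, and NFKB2 at D3, D28 and D28WO in U87 and at D3, D14 and D28 in U251. In U87 7 of the 10 genes rose at D3 and 0 fell, where 16.7% of all genes tested passed the test (12.4% higher and 4.28% lower). For D14 the U87 counts were 2 and 0 (5.16% of all genes passed, 4.14% higher and 1.02% lower), for D28 8 and 0 (23.8%, with 17.2% higher and 6.55% lower), and for D28WO 9 and 0 (42%, with 28.6% higher and 13.4% lower). U251 had 4 that rose and 1 that fell at D3 (40.9% of all genes passed, 24.9% higher and 16% lower) and 4 and 0 at D14 (21.2%, with 13.8% higher and 7.31% lower). For D28 the U251 counts were 6 and 0 (40.6%, with 25.9% higher and 14.7% lower), and for D28WO 4 and 1 (27.7%, with 14.3% higher and 13.4% lower). The study's stricter limit, which also asks an absolute log2 fold change over 1, kept 3, 0, 1 and 4 genes in U87 in these comparisons (6.23%, 2.1%, 7.38% and 14.9% of all genes) and 1, 2, 2 and 1 in U251 (14.3%, 5.76%, 15.2% and 7.45%). The median log2 fold change of the 10 was 0.90, 0.32, 0.59 and 0.79 in U87 at D3, D14, D28 and D28WO, and 0.22, 0.35, 0.28 and 0.18 in U251. Over all genes tested the corresponding medians were 0.20, 0.15, 0.19 and 0.25 in U87 and 0.13, 0.096, 0.16 and 0.015 in U251, and values relative to these medians are given below for RELA and NFKBIA. At D14, 6 of the 10 genes in U87, with 2 D14 libraries, and 4 in U251 had an unadjusted p under 0.05. The share of all genes with such a p was not counted, so these 2 counts cannot be compared with the other genes. In bulk RNA a change in the share of responding cells and a change in the level per cell cannot be told apart. With the D14 libraries left out of the fit, the counts at D3, D28 and D28WO were the same in both lines, and with the D28WO libraries left out the U87 counts were 7, 1 and 7 at D3, D14 and D28 and those of U251 did not change. The 2 U87 genes called at D14, NFKBIA and TNFAIP3, were both lost without D14 replicate 2.

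**Figure D1:**
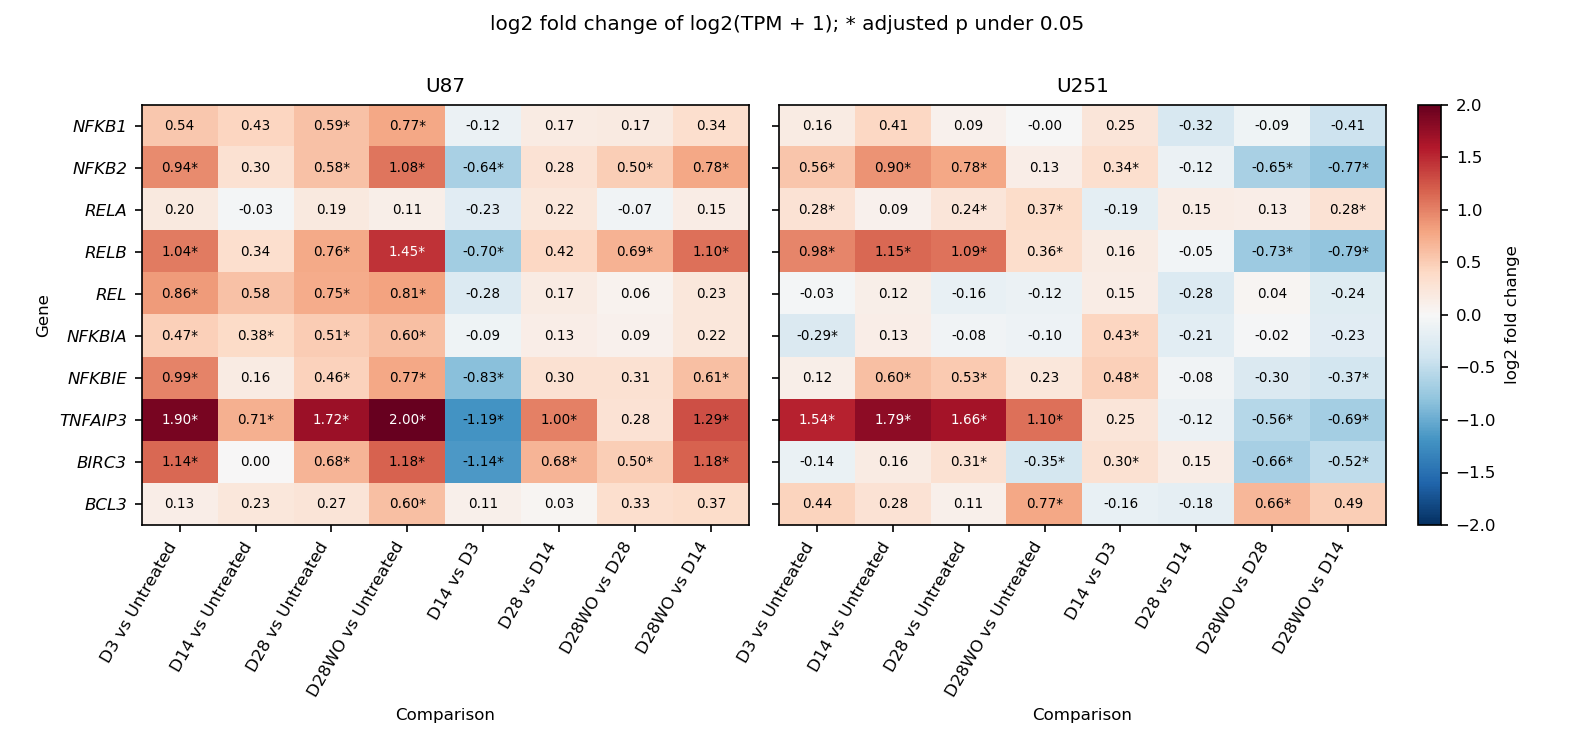
log2 fold change (on the log2(TPM + 1) scale) of each gene (rows) in 8 comparisons (columns) for U87 and U251. Red is higher and blue lower in the group named first, and stars mark an adjusted p under 0.05. TNFAIP3 passes in all 4 comparisons with Untreated in both lines, and the D28WO against D28 column is mostly red in U87 and mostly blue in U251.

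NFKB2 and RELB, the partners of the noncanonical dimer, moved together in both lines. In U87 RELB was at 35.9, 32.6 and 34.1 TPM in Untreated, 83.1 and 61.0 at D3, 46.9 and 40.5 at D14, 65.5, 51.3 and 59.4 at D28, and 97.3, 99.9 and 87.8 at D28WO. Every U87 library of the other 4 groups thus lay above every Untreated library, with D14 nearest to them and D28WO farthest. RELB rose by a log2 fold change of 1.04 ± 0.14 (SE, adjusted p = 0.000554) at D3, 0.76 ± 0.12 (0.00145) at D28 and 1.45 ± 0.12 (5.12e-06) at D28WO, while D14 did not pass (0.34 ± 0.14, adjusted p = 0.17). In U251 RELB had 33.7, 43.7 and 44.8 TPM in Untreated, 87.3, 77.3 and 78.6 at D3, 95.7, 81.7 and 95.3 at D14, 90.6, 80.6 and 90.9 at D28, and 47.8, 49.0 and 60.4 at D28WO. Here D3, D14 and D28 formed 1 plateau above the other groups, and D28WO lay between the plateau and Untreated without overlap with either. The log2 fold changes in U251 were 0.98 ± 0.12 (adjusted p = 1.44e-05) at D3, 1.15 ± 0.12 (1.42e-05) at D14 and 1.09 ± 0.12 (5.38e-06) at D28. At D28WO RELB stayed higher than Untreated by 0.36 ± 0.12 (adjusted p = 0.0344), a call that was lost without Untreated replicate 1 (0.153), without D28WO replicate 3 (0.152), with only the compared groups in the fit (0.0971), with no filter (0.0641), and under quantile normalization (0.0703) or median-ratio size factors (0.0691).

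For NFKB2 the U87 levels were 68.7, 66.3 and 53.7 TPM in Untreated, 133 and 110 at D3, 79.8 and 74.4 at D14, 106, 96.3 and 81.1 at D28, and 135, 141 and 124 at D28WO. The D14 libraries lay just above Untreated and the D3 and D28WO libraries highest. It rose at D3 (0.94 ± 0.13, adjusted p = 0.00087), at D28 (0.58 ± 0.12, 0.00571) and at D28WO (1.08 ± 0.12, 3.36e-05), and D14 gave 0.30 ± 0.13 (0.211). In U251 NFKB2 was at 54.5, 60.3 and 62.2 TPM in Untreated, 93.5, 87.4 and 81.3 at D3, 124, 94.2 and 117 at D14, 86.2, 119 and 103 at D28, and 64.4, 61.0 and 69.2 at D28WO. The D28WO libraries overlapped with Untreated, whereas the libraries of D3, D14 and D28 lay above both groups. Its log2 fold changes in U251 were 0.56 ± 0.12 (adjusted p = 0.00179) at D3, 0.90 ± 0.12 (0.000125) at D14 and 0.78 ± 0.12 (0.000127) at D28, and D28WO did not pass (0.13 ± 0.12, 0.457).

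The canonical subunits had fewer calls. RELA, the main activating subunit, was the most abundant of the 10 genes in every group of both lines, at 124 to 175 TPM over the U87 libraries and 127 to 179 TPM over those of U251. No comparison of RELA passed in U87, where the log2 fold changes against Untreated were 0.20 ± 0.10 for D3, -0.03 ± 0.10 for D14, 0.19 ± 0.09 for D28 and 0.11 ± 0.09 for D28WO. The 95% intervals of these differences lay between -0.25 and 0.42, and under quantile normalization the D28 value became 0.27 and passed (adjusted p = 0.0479). In U251 RELA rose at D3 by 0.28 ± 0.07 (adjusted p = 0.00781), at D28 by 0.24 ± 0.07 (0.0188) and at D28WO by 0.37 ± 0.07 (0.00181). After subtraction of the median of all genes these were 0.15, 0.08 and 0.36, and with median-ratio size factors the D3 and D28 calls were lost (adjusted p = 0.113 and 0.259). The D28 call was also lost without Untreated replicate 2 (0.0649), D28 replicate 1 (0.052) or D28 replicate 3 (0.0647). In GENCODE 44 RELA shares exonic sequence with RELA-DT on the opposite strand, which was at 6.48 to 15.4 TPM in U87 and 14.8 to 33.6 TPM in U251, and the sources used here do not state whether counting used strand.

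NFKB1, the source of p50, was uneven among the U87 Untreated libraries, at 53.6, 89.6 and 51.5 TPM. It was at 82.5 and 103 TPM at D3, 90.8 and 79.0 at D14, 100, 93.9 and 91.7 at D28, and 110, 105 and 108 at D28WO. D28 and D28WO were the only groups with every library above every Untreated library. NFKB1 rose by 0.77 ± 0.17 (adjusted p = 0.00373) at D28WO and by 0.59 ± 0.17 (0.0278) at D28, and the D28 call was lost without Untreated replicate 1 (0.0943), Untreated replicate 3 (0.113), D28 replicate 1 (0.0796) or D28 replicate 2 (0.0658) and without the D28WO libraries (0.054). It was also lost with median-ratio size factors (0.41, adjusted p = 0.0724), no filter (0.0611) and only the compared groups (0.0826). Without Untreated replicate 2, the high library, NFKB1 also passed at D3 (0.80, adjusted p = 0.00119) and at D14 (0.68, 0.011), where with it the values were 0.54 ± 0.19 (0.0725) and 0.43 ± 0.19 (0.21). In U251 the 15 NFKB1 values ranged from 41.0 to 86.8 TPM, no comparison passed, and the groups overlapped in each comparison with Untreated. Replicate 1 was the lowest library of each U251 group. With the replicate number as a block in the fit, NFKB1 passed at D14 against Untreated (0.41, adjusted p = 0.0268) and at D28WO against D14 (-0.41, 0.0212).

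REL, which encodes c-Rel, a subunit known best from lymphoid cells, was the least abundant of the 10 in both lines. Its U87 levels were 3.7, 4.4 and 4.3 TPM in Untreated, 9.1 and 7.5 at D3, 6.2 and 7.1 at D14, 8.9, 7.8 and 6.3 at D28, and 9.6, 6.6 and 8.0 at D28WO. All U87 libraries of the other groups lay above the Untreated ones. REL rose by 0.86 ± 0.22 (adjusted p = 0.0208) at D3, 0.75 ± 0.19 (0.0176) at D28 and 0.81 ± 0.19 (0.0057) at D28WO. With quantile normalization these values dropped to 0.36, 0.24 and 0.22 and none passed (adjusted p = 0.306, 0.414 and 0.381). The D3 call was also lost without Untreated replicate 1 (0.0526), D3 replicate 2 (0.155) or D3 replicate 3 (0.0507), and the D28 call without Untreated replicate 1 (0.0522), D28 replicate 1 (0.0652) or D28 replicate 2 (0.0519), and both were lost with only the compared groups (0.0986 and 0.0753). In U251 REL ranged from 5.9 to 10.9 TPM, with no comparison passed and values against Untreated between -0.16 and 0.12. With quantile normalization the U251 value at D28 became -0.58 and passed (adjusted p = 0.0303).

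**Figure D2:**
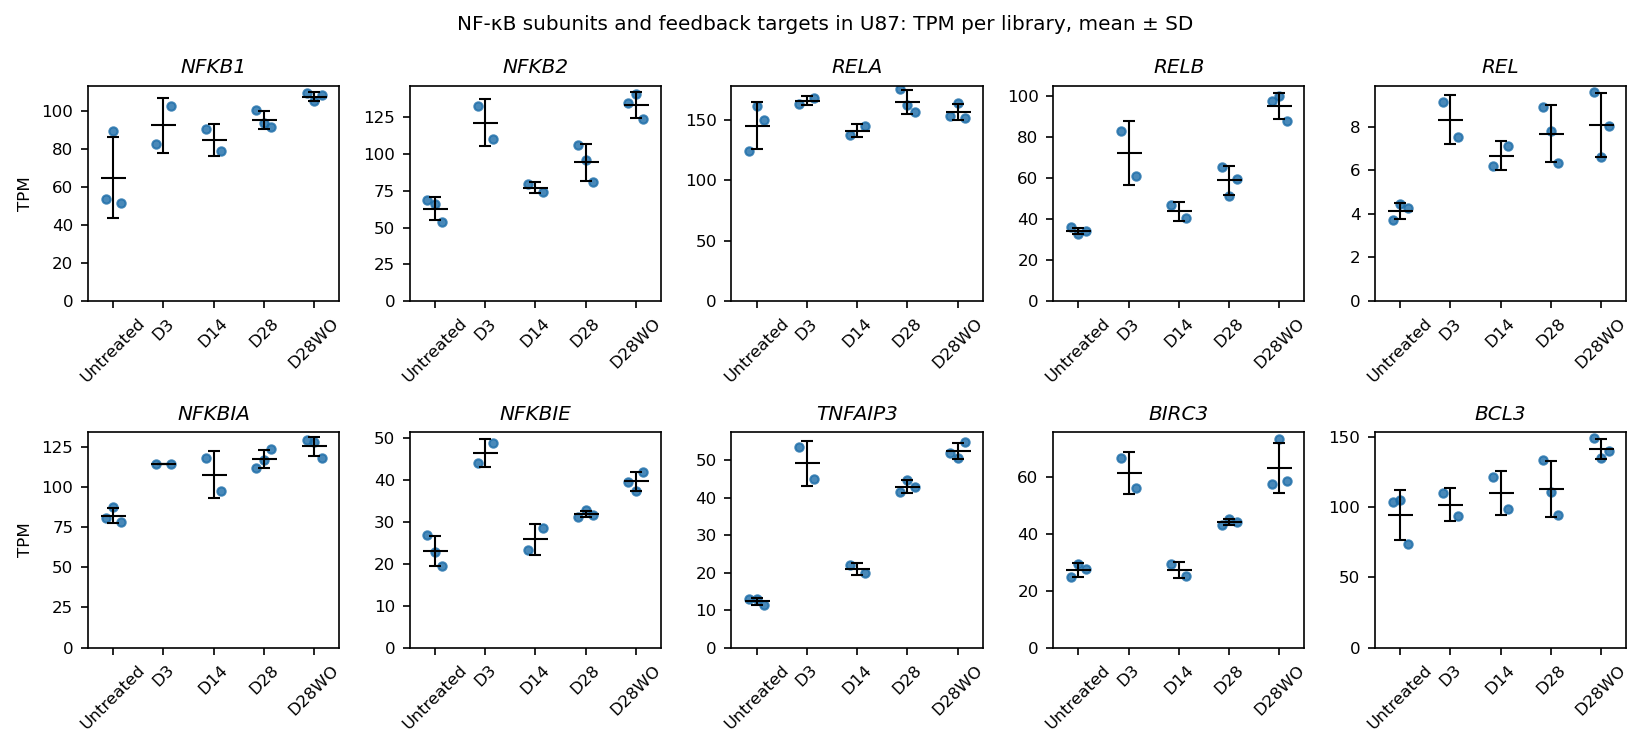
TPM (vertical axes, from 0) of the 10 genes in the 13 U87 libraries used, by group. Points are libraries and black bars the mean ± SD. For TNFAIP3, RELB, NFKB2 and BIRC3 the D14 libraries lie nearer to Untreated than to D3, and the D28WO libraries at or above those of D28.

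Among the inhibitors, NFKBIA rose in all 4 comparisons with Untreated in U87 and in none in U251, and NFKBIE rose at D3, D28 and D28WO in U87 and at D14 and D28 in U251. NFKBIA encodes IκBα, the inhibitor that NF-κB resynthesizes within its feedback loop. In U87 it had 80.6, 87.7 and 78.3 TPM in Untreated, 114 and 114 at D3, 118 and 97.6 at D14, 112, 117 and 123 at D28, and 129, 128 and 118 at D28WO. Every U87 library of the other 4 groups was above every Untreated one. NFKBIA rose by 0.47 ± 0.09 (adjusted p = 0.00524) at D3, 0.51 ± 0.08 (0.00117) at D28 and 0.60 ± 0.08 (0.000126) at D28WO. After subtraction of the median of all genes these were 0.27, 0.32 and 0.35, and the D3 call was lost with median-ratio size factors (0.0853). The D14 rise of 0.38 ± 0.09 (adjusted p = 0.036) was lost without Untreated replicate 1 (0.0739) or 3 (0.101), D3 replicate 2 (0.0509) or 3 (0.0511), D14 replicate 2 (0.245) or 3 (0.0505), and D28WO replicate 1 (0.0532) or 2 (0.0538). It was also lost with median-ratio size factors (0.21, adjusted p = 0.261), quantile normalization (0.0618), no filter (0.0589), a replicate block (0.0558), only the compared groups (0.152) and without the D28WO libraries (0.0765).

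U251 showed no rise of NFKBIA in any comparison with Untreated. Its libraries had 95.1, 94.3 and 96.5 TPM in Untreated, 73.0, 80.3 and 79.4 at D3, 106, 100 and 107 at D14, 82.6, 86.4 and 103 at D28, and 90.0, 96.0 and 81.5 at D28WO. The D3 libraries lay below every Untreated and D14 library, and NFKBIA fell by 0.29 ± 0.08 on the log2 scale (adjusted p = 0.0105). At D14, D28 and D28WO the log2 fold changes were 0.13, -0.08 and -0.10, with 95% intervals between -0.27 and 0.31.

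NFKBIE encodes IκBε, a slower inhibitor of RelA and c-Rel. The U87 libraries had 26.8, 22.9 and 19.5 TPM in Untreated, 44.1 and 48.9 at D3, 23.2 and 28.5 at D14, 31.2, 32.8 and 31.7 at D28, and 39.6, 37.5 and 42.0 at D28WO. D3 was the highest group and D14 overlapped with Untreated. NFKBIE rose by 0.99 ± 0.14 (adjusted p = 0.000688) at D3 and 0.77 ± 0.12 (0.000413) at D28WO, and by 0.46 ± 0.12 (0.0187) at D28. The D28 call was lost without Untreated replicate 3 (0.0691), without D28 replicate 2 (0.0578), with only the compared groups (0.0699), with median-ratio size factors (0.28, adjusted p = 0.0602), and with quantile normalization (0.18, adjusted p = 0.242). In U251 NFKBIE was at 50.2, 42.0 and 43.7 TPM in Untreated, 53.8, 44.3 and 50.4 at D3, 66.4, 62.8 and 79.0 at D14, 64.7, 67.6 and 64.3 at D28, and 55.1, 61.2 and 44.5 at D28WO. Only D14 and D28 had all their libraries above every Untreated library, and NFKBIE rose by 0.60 ± 0.12 (adjusted p = 0.00278) and 0.53 ± 0.12 (0.00295) there.

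BCL3 encodes a nuclear IκB protein that binds p50 and p52 dimers and can act as a coactivator. It was abundant in both lines and rose against Untreated only at D28WO, by 0.60 ± 0.15 (adjusted p = 0.00837) in U87 and 0.77 ± 0.18 (0.00619) in U251. The U87 libraries had 104, 105 and 73.6 TPM in Untreated and 149, 135 and 140 at D28WO. In U251 the Untreated values were 102, 86.1 and 85.6 TPM and the D28WO values 160, 138 and 172. The groups did not overlap in either line. The U251 D3 libraries were uneven, with 104, 179 and 101 TPM, and D3 did not pass (0.44 ± 0.18, adjusted p = 0.0722) except without D3 replicate 1 (0.0446) or 3 (0.031).

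**Figure D3:**
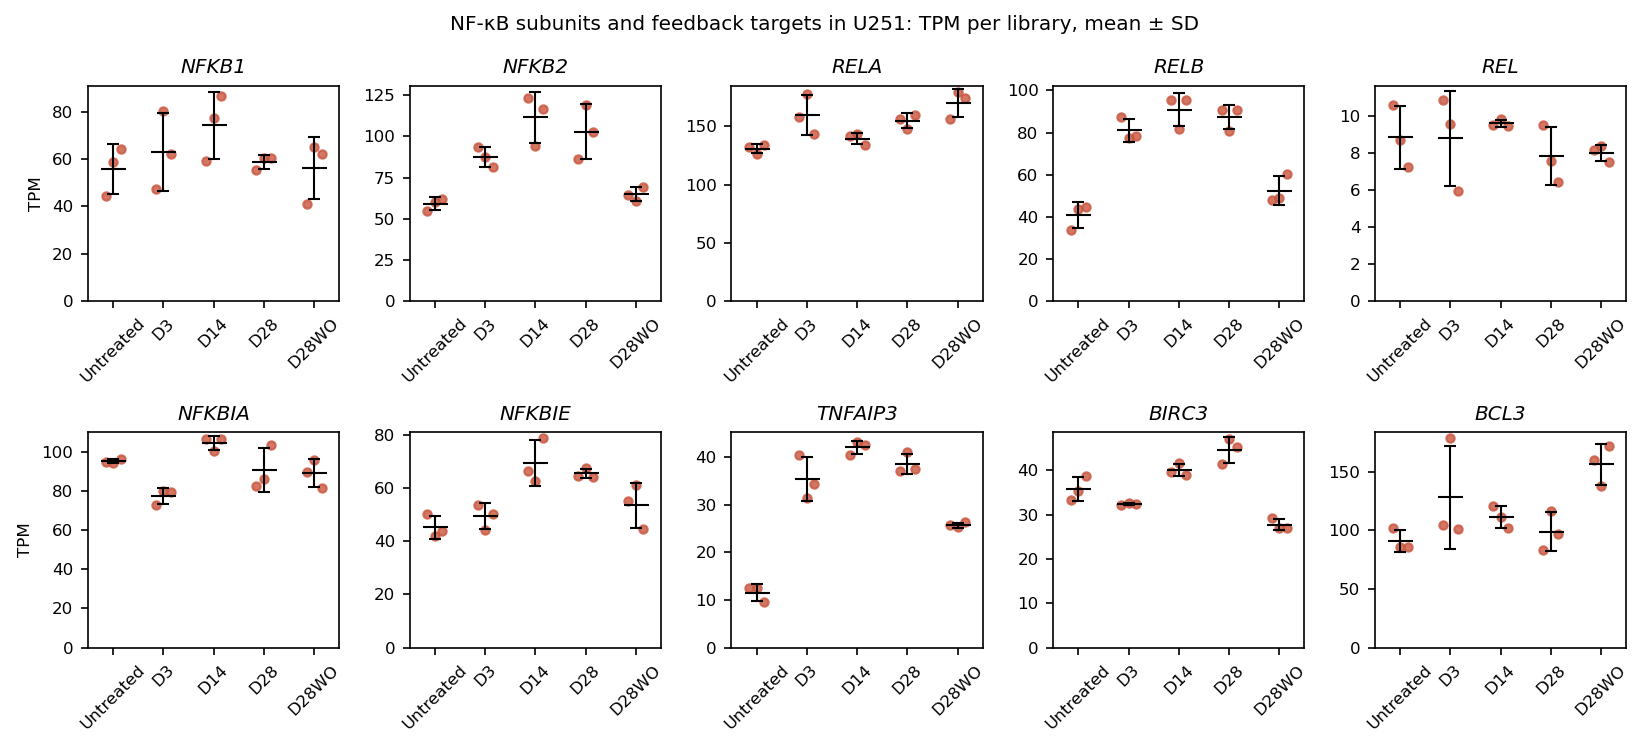
TPM (vertical axes, from 0) of the 10 genes in the 15 U251 libraries, by group. Points are libraries and black bars the mean ± SD. RELB and NFKB2 lie higher at D3, D14 and D28 than in Untreated and at D28WO, where the mean of BCL3 is at its highest.

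TNFAIP3, the gene of the deubiquitinase and ubiquitin ligase A20, had the highest log2 fold change of the 10 genes in each comparison with Untreated in both lines. In U87 it was at 13.04, 12.9 and 11.3 TPM in Untreated, 53.5 and 45.04 at D3, 22.1 and 19.9 at D14, 41.5, 44.8 and 42.8 at D28, and 52.0, 50.8 and 54.9 at D28WO. No U87 library overlapped with Untreated, and D14 stood alone between Untreated and the rest. The log2 fold changes were 1.90 ± 0.11 (adjusted p = 8.13e-07), 0.71 ± 0.11 (0.00824), 1.72 ± 0.10 (4.71e-07) and 2.00 ± 0.10 (9.85e-08) at D3, D14, D28 and D28WO. The D3 value corresponds to 3.74-fold. Of all genes tested, 98.3% had a lower log2 fold change at D3 and 97.1% at D28WO. The D14 call was lost without D14 replicate 2 (adjusted p = 0.0844), with quantile normalization (0.41, 0.0699) and with only the compared groups (0.119).

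In U251 TNFAIP3 had 12.6, 12.6 and 9.5 TPM in Untreated, 40.5, 31.5 and 34.3 at D3, 40.3, 43.1 and 42.5 at D14, 37.0, 41.0 and 37.5 at D28, and 25.6, 25.2 and 26.2 at D28WO. The 3 D28WO libraries lay close together, above all Untreated libraries and below those of D3, D14 and D28. It rose by 1.54 ± 0.11 (adjusted p = 1.36e-07) at D3, 1.79 ± 0.11 (1.22e-07) at D14 and 1.66 ± 0.11 (5.42e-08) at D28, and by 1.10 ± 0.11 (5.96e-06) after washout. TNFAIP3 shares exonic sequence with the antisense gene WAKMAR2, which was at 1.84 to 10.2 TPM in U87 and 1.02 to 7.04 TPM in U251, so their reads may not be fully separated.

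BIRC3, the gene of the ubiquitin ligase cIAP2, rose at D3, D28 and D28WO in U87, and in U251 it rose at D28 and fell at D28WO. In U87 it was at 24.8, 29.6 and 27.5 TPM in Untreated, 66.9 and 56.4 at D3, 29.4 and 25.3 at D14, 43.4, 45.3 and 44.2 at D28, and 57.6, 73.4 and 58.9 at D28WO. D14 lay within the Untreated range, with a log2 fold change of 0.00 ± 0.13. BIRC3 rose by 1.14 ± 0.13 (adjusted p = 0.000147) at D3, 0.68 ± 0.12 (0.0018) at D28 and 1.18 ± 0.12 (1.34e-05) at D28WO. In U251 its values were 33.3, 35.4 and 38.7 TPM in Untreated, 32.2, 32.6 and 32.5 at D3, 39.7, 41.6 and 39.0 at D14, 41.4, 47.1 and 45.2 at D28, and 29.2, 27.0 and 27.0 at D28WO. The D28 libraries lay above all Untreated libraries and overlapped with D14, and the D28WO libraries were the lowest of the line. BIRC3 rose at D28 by 0.31 ± 0.08 (adjusted p = 0.00529) and fell by 0.35 ± 0.08 on the log2 scale at D28WO (0.00319), and at D3 it gave -0.14 ± 0.08 (0.178). The D28 call was lost with quantile normalization (0.0725) and median-ratio size factors (0.0777), and under the latter the fall at D3 passed (-0.24, 0.039). BIRC3 overlaps an unnamed antisense gene, and REL an unnamed gene on its own strand, in exons.

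Time points were also compared with each other. From D3 to D14, 5 of the 10 genes fell and 0 rose in U87, where 4.79% of all genes passed (1.47% higher, 3.32% lower), and 4 rose and 0 fell in U251, where 25.5% passed (12.8% higher, 12.6% lower). With the stricter limit 2 (2.63% of all genes) and 0 (6.49%) were kept. The U87 falls were TNFAIP3 by 1.19 ± 0.12 on the log2 scale (adjusted p = 0.000126), BIRC3 by 1.14 ± 0.14 (0.000557), NFKBIE by 0.83 ± 0.15 (0.00744), RELB by 0.70 ± 0.15 (0.0221) and NFKB2 by 0.64 ± 0.15 (0.0284). With 2 libraries in each group, all 5 were lost when the fit held only these groups (adjusted p = 0.0537 to 0.174), and 3 passed with the D28WO libraries left out, where RELB (0.0524) and NFKB2 (0.06) did not. NFKB2 was also lost with no filter (0.0556). RELB and NFKB2 were also lost without D3 replicate 2 (0.186 and 0.212), D14 replicate 2 (0.0638 and 0.112) or D14 replicate 3 (0.155 and 0.156), and NFKBIE without D3 replicate 3 (0.0642) or D14 replicate 2 (0.0858). In U251 NFKBIA rose by 0.43 ± 0.08 (adjusted p = 0.00174), NFKBIE by 0.48 ± 0.12 (0.00949) and BIRC3 by 0.30 ± 0.08 (0.0113), the last lost with only these groups in the fit (0.0529). NFKB2 rose by 0.34 ± 0.12 (0.0489), a call lost in 12 of 15 fits that left out 1 library (adjusted p = 0.0536 to 0.173), without all D28WO libraries (0.0699), and with a pseudocount of 0.1, no filter, quantile normalization, a replicate block, array weights or only these groups (0.0515 to 0.0867).

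From D14 to D28, 2 genes rose and 0 fell in U87, where 4.06% of all genes passed (2.94% higher, 1.12% lower), and 1 was kept by the stricter limit (2.12%). TNFAIP3 rose by 1.00 ± 0.11 (adjusted p = 0.000211) and BIRC3 by 0.68 ± 0.13 (0.0104), the latter lost without D14 replicate 3 (0.122). In U251 0 of the 10 passed in limma, where 20.8% of all genes did (11.3% higher, 9.48% lower), 0 were kept by the stricter limit (5.84%), and 1, NFKBIA, had an unadjusted p under 0.05 and passed without D28 replicate 3 (-0.30, adjusted p = 0.0129). The continued exposure of U251 from D14 to D28 gave log2 fold changes between -0.32 and 0.15.

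The washout comparison asks whether the genes return when IFN-γ is withdrawn. At D28WO against D28, 3 of the 10 genes were higher and 0 lower in U87, where 18.3% of all genes passed (9.9% higher, 8.44% lower), and 1 was higher and 4 were lower in U251, where 29.1% passed (10.3% higher, 18.8% lower). None of the 10 was kept by the stricter limit in either line, against 5.53% and 9.26% of all genes. RELB was higher by 0.69 ± 0.12 (adjusted p = 0.00299), NFKB2 by 0.50 ± 0.12 (0.0142) and BIRC3 by 0.50 ± 0.12 (0.0118) in U87. The same 3 genes were lower in U251: RELB fell by 0.73 ± 0.12 on the log2 scale (0.00039), NFKB2 by 0.65 ± 0.12 (0.00109) and BIRC3 by 0.66 ± 0.08 (2.57e-05). TNFAIP3 fell by 0.56 ± 0.11 in U251 (0.00193) and gave 0.28 ± 0.10 in U87 (0.0715). In no case did the D28WO and D28 libraries of these genes overlap within a line. BCL3 went the other way in U251, higher by 0.66 ± 0.18 (0.0152), and gave 0.33 ± 0.15 (0.164) in U87. The median of all genes was 0.04 in U87 and -0.12 in U251. The lines were not tested against each other, because their tables were normalized separately.

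Several of these calls depended on single libraries. For NFKB2 in U87 the call was lost without D28 replicate 3 (adjusted p = 0.0505), D28WO replicate 1 (0.0514) or D28WO replicate 2 (0.0588), and BIRC3 in U87 without D28WO replicate 2 (0.0532), so that RELB alone passed in U87 without that library. BCL3 in U251 was lost without D28 replicate 1 (0.0653) or D28WO replicate 3 (0.0591). The U87 RELB call and the U251 calls of RELB, NFKB2, TNFAIP3 and BIRC3 were not lost in any alternative at the same threshold.

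**Figure D4:**
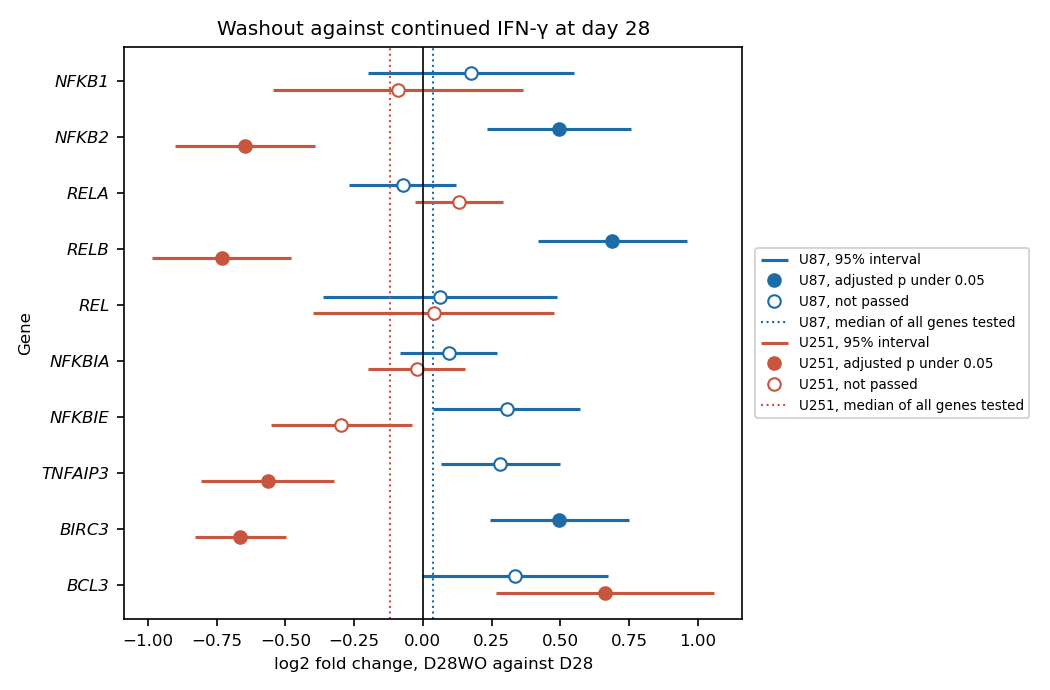
log2 fold change of D28WO against D28 (horizontal axis) for the 10 genes in U87 (blue) and U251 (red), with 95% intervals. Filled points have an adjusted p under 0.05, and dotted lines mark the median of all genes tested. RELB, NFKB2 and BIRC3 are filled on opposite sides of 0 in the 2 lines.

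Against D14, the day on which the labels place the withdrawal, 5 genes were higher and 0 lower at D28WO in U87, where 25.9% of all genes passed (14.3% higher, 11.5% lower), and 1 was higher and 5 were lower in U251, where 26.4% passed (10.6% higher, 15.8% lower). The stricter limit kept 3 (9.69% of all genes) and 0 (7.17%). In U87 TNFAIP3 was higher by 1.29 ± 0.11 (adjusted p = 1.23e-05), BIRC3 by 1.18 ± 0.13 (6.98e-05), RELB by 1.10 ± 0.14 (0.000176), NFKB2 by 0.78 ± 0.13 (0.00138) and NFKBIE by 0.61 ± 0.14 (0.00705), the last lost without D14 replicate 2 (0.0883). In U251 RELB fell by 0.79 ± 0.12 on the log2 scale (0.000216), NFKB2 by 0.77 ± 0.12 (0.000301), TNFAIP3 by 0.69 ± 0.11 (0.000471), BIRC3 by 0.52 ± 0.08 (0.000216) and NFKBIE by 0.37 ± 0.12 (0.0338). NFKBIE was lost without D14 replicate 1 (0.0548) or 3 (0.144) and D28WO replicate 1 (0.0586) or 3 (0.153), and with no filter (0.0604), median-ratio size factors (0.0517) or only the compared groups (0.0873). RELA was higher by 0.28 ± 0.07 in U251 (0.0125), which was lost without D14 replicate 3 (0.0527) or D28WO replicate 2 (0.0553). NFKBIA (-0.23, adjusted p = 0.0535) and BCL3 (0.49, 0.0678) did not pass in U251, but did in some alternatives, among them array weights (0.0432 and 0.0316). The U87 rises stand beside the same direction in the IFN-γ response genes, of which 25 of 25 were higher at D28WO than at D14. In U251 the falls of these 5 genes stand beside 24 of 25 IFN-γ response genes that were higher.

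The order of the 10 genes by level was similar in the Untreated cells of both lines. In U87 it ran from RELA (145 ± 19.2 TPM) over BCL3 (94.1 ± 17.8), NFKBIA (82.2 ± 4.86), NFKB1 (64.9 ± 21.4), NFKB2 (62.9 ± 8.05), RELB (34.2 ± 1.62), BIRC3 (27.3 ± 2.38), NFKBIE (23.1 ± 3.68) and TNFAIP3 (12.4 ± 0.933) to REL (4.14 ± 0.372, SD, n = 3 each). Neighbours whose libraries overlapped were BCL3 and NFKBIA, NFKBIA and NFKB1, NFKB1 and NFKB2, and BIRC3 and NFKBIE. In U251 the order was RELA (131 ± 3.68 TPM), NFKBIA (95.3 ± 1.15), BCL3 (91.2 ± 9.30), NFKB2 (59.0 ± 4.0), NFKB1 (55.7 ± 10.4), NFKBIE (45.3 ± 4.31), RELB (40.7 ± 6.15), BIRC3 (35.8 ± 2.73), TNFAIP3 (11.5 ± 1.76) and REL (8.86 ± 1.69). Here the neighbours that did not overlap were RELA and NFKBIA, BCL3 and NFKB2, and BIRC3 and TNFAIP3. Places changed in the other groups. At D28WO in U87 TNFAIP3 (52.5 ± 2.13 TPM) stood above NFKBIE (39.7 ± 2.24), and at D3 in U251 NFKB2 (87.4 ± 6.10) stood above NFKBIA (77.6 ± 3.96), both with no overlap. RELB at D3 in U251 (81.0 ± 5.45 TPM) stood above NFKBIE (49.5 ± 4.83) with no overlap, and its libraries overlapped with those of NFKBIA and NFKB1.

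Across libraries the median Pearson r of log2(TPM + 1) of a gene with the other 9 ranged from 0.49 (RELA) to 0.87 (TNFAIP3) over the 13 U87 libraries, and from -0.04 (BCL3) to 0.44 (NFKBIE) over the 15 U251 libraries. The pair RELB and NFKB2 had r = 0.96 in U87 and 0.92 in U251, while BIRC3 and BCL3 had r = -0.58 in U251. These values describe libraries that share groups and are not independent points. Of 20473 genes tested in both lines, the genes most alike by the lower of the 2 correlations were PLPP3 and NFKB2 for RELB (r = 0.95 and 0.95 for PLPP3 in U87 and U251), and PLPP3 and RELB for NFKB2. TNFAIP3 was most like IL7 (r = 0.94 and 0.97) and HES7 (0.95 and 0.94), and BIRC3 most like TRAF1 (0.91 and 0.94) and IRAK2 (0.97 and 0.90). NFKBIA was most like PTGES (0.91 and 0.89) and TNFRSF9 (0.84 and 0.83), and NFKBIE most like IL36B (0.87 and 0.86) and PPP4R4 (0.83 and 0.85). For BCL3 they were LRRC37A (0.81 and 0.81) and ATN1 (0.79 and 0.94), for RELA AFF1 (0.81 and 0.82) and CDK8 (0.78 and 0.79), for REL GSPT2 (0.83 and 0.73) and SIK3 (0.87 and 0.72), and for NFKB1 NEK5 (0.71 and 0.71) and TMEM165 (0.69 and 0.67).

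Genes around the 10 were described from lists drawn up by known role. The counts of each list are to be read against all genes tested, of which 12.4%, 4.14%, 17.2% and 28.6% rose and 4.28%, 1.02%, 6.55% and 13.4% fell in U87 at D3, D14, D28 and D28WO. In U251 24.9%, 13.8%, 25.9% and 14.3% rose and 16%, 7.31%, 14.7% and 13.4% fell. Of 34 other NF-κB target genes, 32 were tested in U87 and 29 in U251. In U87 24 rose and 1 fell at D3, 5 rose and 1 fell at D14, 22 rose and 1 fell at D28, and 27 rose and 3 fell at D28WO, with median log2 fold changes of 1.21, 0.15, 1.04 and 1.47. CXCL1, a neutrophil chemokine, rose by 3.00 ± 0.19 (adjusted p = 1.55e-06) at D3, from 3.67 to 5.59 TPM in Untreated to 36.2 to 48.9. CCL20, a chemokine for CCR6-bearing cells, rose by 3.32 ± 0.28 (4.41e-06) at D28WO, where it had 45.2 to 66.3 TPM against 3.17 to 7.12 in Untreated. In U251 15 rose and 5 fell at D3, 17 rose and 0 fell at D14, 20 rose and 2 fell at D28, and 13 rose and 4 fell at D28WO, with medians of 0.34, 0.55, 0.83 and 0.13. ICAM1, an adhesion molecule that IFN-γ and NF-κB both induce, rose there by 4.34 ± 0.12 (6.78e-12) at D3, from 5.36 to 7.77 TPM to 145 to 162. The list shares IRF1 with the IFN-γ response genes.

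At D28WO against D28, 18 of 32 targets were higher, 4 lower and 10 not passed in U87 (9.9% of all genes higher, 8.44% lower), with a median of 0.45 beside 0.04 over all genes. In U251 1 of 29 was higher, 16 were lower and 12 did not pass (10.3% of all genes higher, 18.8% lower), with a median of -0.43 beside -0.12. CCL20 (1.78 ± 0.28, adjusted p = 0.00136), CSF2 (1.76 ± 0.29, 0.00187) and TNFAIP6 (1.54 ± 0.17, 0.000201) led in U87. In U251 CCL2 fell by 2.81 ± 0.18 on the log2 scale (1.65e-07), from 68.0 to 76.0 TPM at D28 to 7.97 to 11.9 at D28WO. The Untreated U251 libraries had 17.8 to 23.7 TPM of CCL2, so the washout libraries lay below them. CSF2 fell by 2.57 ± 0.48 (0.0012) and TNFAIP6 fell by 2.46 ± 0.23 (3.98e-06) in U251. In the same comparison the 25 IFN-γ response genes had 2 higher and 1 lower in U87 and 5 higher and 7 lower in U251, with medians of 0.08 and 0.02.

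Of 20 other IκB family genes and feedback regulators, 12 rose and 0 fell in U87 at D3, 3 and 0 at D14, 10 and 2 at D28, and 12 and 2 at D28WO. Leading genes at D3 were TNIP3, an A20-binding inhibitor (2.21 ± 0.14, adjusted p = 1.55e-06), ZC3H12A, the gene of the RNase regnase-1 (2.09 ± 0.13, 1.55e-06), and NFKBIZ, the gene of the nuclear IκBζ (1.88 ± 0.14, 5.4e-06). In U251 6 rose and 4 fell at D3, 7 and 1 at D14, 11 and 4 at D28, and 6 and 2 at D28WO. For D3 the U251 counts are near the 24.9% of all genes that rose and the 16% that fell. NLRC5, which is also an IFN-γ response gene, led there at D3 (2.19 ± 0.08, 1.52e-10), with TRIB3 (1.496 ± 0.10, 3.69e-08) and NFKBIB, the gene of IκBβ (1.16 ± 0.06, 9.59e-09). At D28WO against D28 NFKBIZ was higher in U87 by 0.75 ± 0.13 (0.0022) and fell in U251 by 0.98 ± 0.15 on the log2 scale (0.00032). TRAF1, an adaptor that binds cIAP2, fell in U251 by 1.85 ± 0.13 (3.05e-07).

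Upstream of the subunits, 24 receptors and adaptors were tested in U87 and 23 in U251. In U87 12 rose and 1 fell at D3, 2 and 0 at D14, 14 and 2 at D28, and 12 and 3 at D28WO, and in U251 9 and 3, 10 and 0, 11 and 2, and 6 and 1. Over all genes 28.6% rose and 13.4% fell at D28WO in U87, and 24.9% rose and 16% fell at D3 in U251. TLR3, the receptor for double-stranded RNA, rose at D3 by 2.15 ± 0.13 (adjusted p = 8.13e-07) in U87 and 2.59 ± 0.14 (4.58e-09) in U251. CD40, a receptor that feeds the noncanonical branch, rose at D3 by 1.97 ± 0.18 (2.65e-05) in U87, and in U251 at D28 by 1.56 ± 0.33 (0.00175). Among 14 genes of the IKK and NIK kinases and the linear ubiquitin ligase, 4, 0, 5 and 5 rose and 0 fell in U87 at D3, D14, D28 and D28WO, and 3, 3, 5 and 3 rose and 3, 0, 3 and 2 fell in U251. In U251 the kinase counts at D3 are near the share over all genes (24.9% higher, 16% lower), and the number that rose in U87 at D28WO is near the 28.6% over all genes. RBCK1, a subunit of the linear ubiquitin ligase, rose at D28WO by 1.74 ± 0.11 (4.37e-07) in U87 and 1.62 ± 0.06 (1.02e-10) in U251. MAP3K14, the gene of NIK, rose at D28 by 0.73 ± 0.15 (0.00461) in U87 and fell at D28 by 0.65 ± 0.07 on the log2 scale (4.3e-06) in U251.

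**Figure D5:**
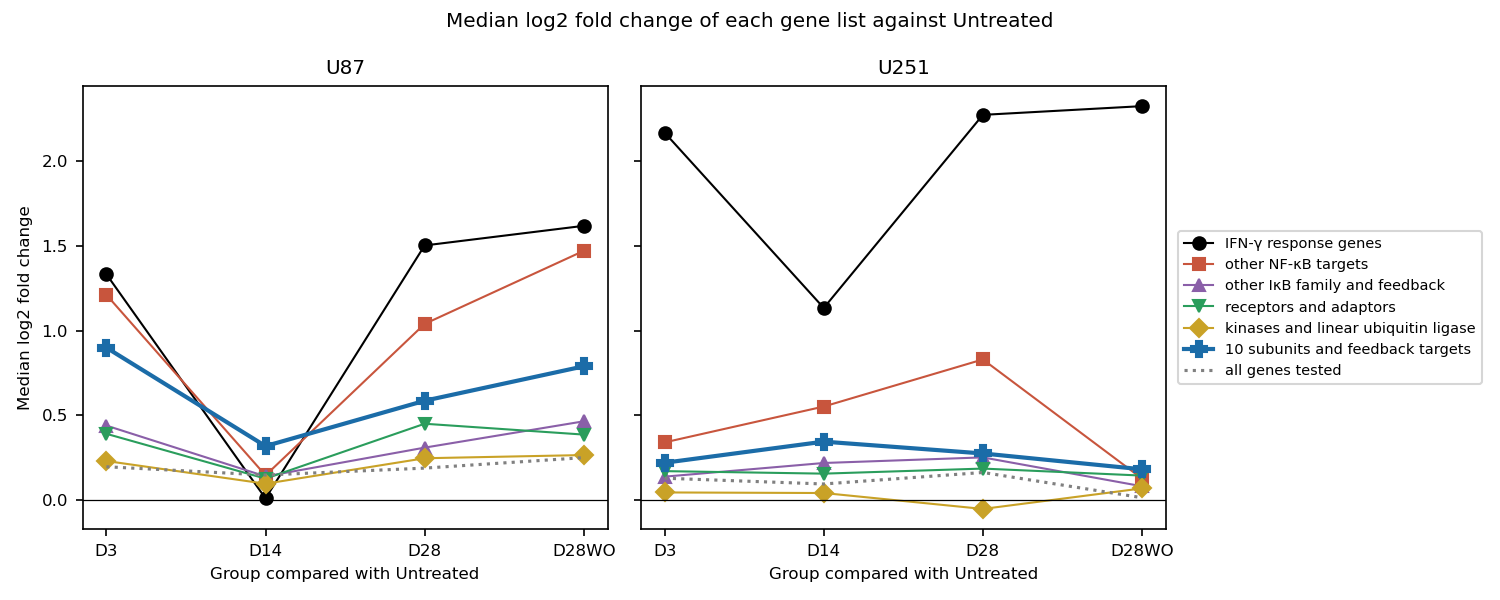
Median log2 fold change against Untreated (vertical axis) of the 10 genes, the 4 pathway lists, 25 IFN-γ response genes and all genes tested, at D3, D14, D28 and D28WO in U87 and U251. The IFN-γ response genes and the other NF-κB targets both dip at D14 in U87, whereas in U251 the NF-κB targets are highest at D28 and lowest at D28WO, and the IFN-γ response genes dip at D14 and are as high at D28WO as at D28.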

How the data were processed

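RNA-seq libraries of U87 and U251 were prepared with the TruSeq RNA kit. The authors aligned reads to GRCh38 with STAR, counted them with featureCounts, and deposited 1 table of TPM values per line, and the step from counts to TPM and the strand setting are not given in the sources used here. TPM keeps no depth, so no detection limit is given. Columns were matched to samples by library name, and 2 U87 columns of the same name were not used. Genes averaging 0.5 TPM or more over a line's libraries were tested on log2(TPM + 1) with limma 3.58.1 in R 4.3.3 (lmFit, eBayes with a trend), the 5 groups of a line in 1 fit, with Benjamini-Hochberg adjustment over all genes tested. A gene passed at an adjusted p under 0.05, and the study's stricter limit also asks an absolute log2 fold change over 1. Fold changes are on the log2(TPM + 1) scale and understate low genes. SE is the standard error of limma. The procedure was also run on simulated data with independent noise per gene, a simpler setting than these data, and no result here rests on it. The members and lists were chosen with earlier results of these data known. From each pathway list up to 3 genes with the largest change among those passed in a comparison could be named, and of these the text gives some. Promoters and coordinates come from RefSeq (GRCh38.p14) and GENCODE 44. Alternatives were other pseudocounts, filters, scalings, samples and weights, a replicate block, and each library left out in turn.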

Additional observations from a re-analysis of the deposited data

Results flagged for a closer look

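In 17 cases a gene moved in opposite directions in U87 and U251 in the same comparison, with every library of a group on 1 side of every library of the other group in each line. The share of all genes that meet this rule was not counted, so the number of cases cannot be compared with the other genes. Groups with few libraries also meet the rule more easily. The difference between the lines was not tested, because their tables were normalized separately. The log2 fold changes on the log2(TPM + 1) scale are given for U87 and then U251, and the plot of D28WO against D28 shows part of them.

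At D28WO against D28, NFKB2 had 0.50 and -0.65, RELB 0.69 and -0.73, NFKBIE 0.31 and -0.30, TNFAIP3 0.28 and -0.56, and BIRC3 0.50 and -0.66. Of these, the NFKBIE values and the U87 value of TNFAIP3 did not pass the test. At D28WO against D14, NFKB2 had 0.78 and -0.77, RELB 1.10 and -0.79, NFKBIA 0.22 and -0.23, NFKBIE 0.61 and -0.37, TNFAIP3 1.29 and -0.69, and BIRC3 1.18 and -0.52, where only the NFKBIA values did not pass.

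At D14 against D3, NFKB2 had -0.64 and 0.34, NFKBIE -0.83 and 0.48, and BIRC3 -1.14 and 0.30, and all of these values passed. At D3 against Untreated, NFKBIA had 0.47 and -0.29, and BIRC3 had 1.14 and -0.14, of which the U251 value of BIRC3 did not pass. BIRC3 also had 1.18 and -0.35 at D28WO against Untreated, and both passed. The cases that involve U87 D14, or D28WO of either line, rest on libraries whose IFN-γ response genes as a set go against the labelled exposure.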

How the results depend on the processing

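Of 160 values (10 genes in 8 comparisons in each of 2 lines) 76 passed, 50 of these were kept in every alternative at the same threshold, 26 were lost in at least 1, and none of the 76 changed sign. Calls kept and lost were 75 and 1 with a pseudocount of 0.1, 70 and 6 with no filter, 76 and 0 with a filter at 1 TPM, 67 and 9 under quantile normalization, the same numbers under median-ratio size factors, 75 and 1 with array weights, and 61 and 15 with only the 2 compared groups in the fit. Calls gained were 1 with the filter at 1 TPM, 3 under quantile normalization, 2 under median-ratio size factors, 2 with array weights and 3 with only the 2 compared groups. Fits without the D14 libraries or without the D28WO libraries were chosen after seeing the data and kept 48 of 48 and 38 of 43 calls. With the limit on fold change the number of genes that passed was 3, 0, 1, 4, 2, 1, 0 and 3 in U87 and 1, 2, 2, 1, 0, 0, 0 and 0 in U251, in the order D3, D14, D28 and D28WO against Untreated, D14 against D3, D28 against D14, and D28WO against D28 and D14. The count at D14 against Untreated in U87, 2 in the report, was 1 with no filter, 0 under quantile normalization, 1 under median-ratio size factors, 0 with only the 2 compared groups and 1 without the D28WO libraries. With only the 2 compared groups 5 genes passed at D28 against Untreated and 0 at D14 against D3 in U87, and 2 at D14 against D3 in U251, and 3 passed at D14 against D3 in U87 without the D28WO libraries. The cause of these changes was not tested.

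The replicate numbers were not treated as pairs. After subtraction of group means, correlations over all genes between same-numbered libraries of compared groups lay between -0.058 and 0.047. Such values do not show whether single genes are paired. A fit with the replicate block kept 74 calls, lost 2 and gained 3. Lost were NFKBIA in U87 at D14 against Untreated (0.37, adjusted p = 0.0558) and NFKB2 in U251 at D14 against D3 (0.34, 0.0702). Gained were NFKB1 in U251 at D14 against Untreated (0.41, 0.0268) and at D28WO against D14 (-0.41, 0.0212), and BCL3 in U87 at D28WO against D28 (0.33, 0.0488). The block gave 1 gene at D14 against Untreated in U87, and turned BIRC3 there to -0.046 and BCL3 at D28 against D14 in U87 to -0.051.

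Values that changed sign had not passed the test. With quantile normalization these were, in U87, RELA (0.019), NFKBIE (-0.082) and BIRC3 (-0.21) at D14 against Untreated and REL (-0.022) at D28WO against D28, and in U251 REL (-0.067) at D14 against Untreated. With median-ratio size factors they were, in U87, BCL3 (-0.061) at D3, NFKBIE (-0.0049) and BIRC3 (-0.17) at D14 and RELA (-0.11) at D28WO against Untreated, and in U251 NFKB1 (-0.025) and BCL3 (-0.0063) at D28 against Untreated and NFKBIA (0.060) at D28WO against D28. Array weights turned RELA at D14 in U87 (0.0084) and NFKB1 at D28WO in U251 (0.0075) against Untreated.

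Leaving out each library in turn lost 19 of the 76 calls in at least 1 fit. A U87 group of 2 then keeps a lone library, which is assumed to vary like the other groups. Counts ranged from 0 to 3 at D14 and 5 to 8 at D28 against Untreated, 2 to 5 at D14 against D3, 1 to 2 at D28 against D14 and 1 to 3 at D28WO against D28 in U87, and from 0 to 1 at D28 against D14 in U251. The lowest U87 counts came without D14 replicate 2 (0 and 2 for D14 against Untreated and D3), D28 replicate 2 (5), D14 replicate 3 (1) and D28WO replicate 2 (1), and the U251 count of 1 came without D28 replicate 3. Without Untreated replicate 1 or 3, D3 replicate 2 or 3, D14 replicate 3, or D28WO replicate 1 or 2 the U87 count at D14 against Untreated was 1, and without D3 replicate 2 or D14 replicate 3 that of D14 against D3 was 3. In U87 the uncalled values that crossed 0 ranged from -0.041 to 0.24 for BCL3 at D3, from -0.14 to 0.048 for RELA and -0.10 to 0.10 for BIRC3 at D14 against Untreated. At D14 against D3 they ranged from -0.28 to 0.039 for NFKB1, -0.23 to 0.047 for NFKBIA and -0.040 to 0.26 for BCL3, at D28 against D14 from -0.0091 to 0.26 for NFKBIA and -0.12 to 0.18 for BCL3, and at D28WO against D28 from -0.055 to 0.18 for REL. In U251 against Untreated they ranged from -0.024 to 0.35 for NFKB1 and -0.19 to 0.20 for REL at D3, from -0.069 to 0.20 for NFKB1 and -0.016 to 0.22 for BCL3 at D28, and from -0.16 to 0.20 for NFKB1 and -0.24 to 0.0086 for REL at D28WO. At D14 against D3 in U251 they ranged from -0.079 to 0.31 for REL and -0.30 to 0.11 for BCL3, at D28 against D14 from -0.13 to 0.0016 for RELB and -0.14 to 0.021 for NFKBIE, and at D28WO against D28 from -0.21 to 0.12 for NFKB1, -0.077 to 0.17 for REL and -0.086 to 0.074 for NFKBIA. TPM keeps no read depth, so the precision of low values such as REL is unknown.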
